A study of Rattus norvegicus with 40 samples.

Results

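Microglia of the cervical spinal cord were compared with microglia of the medulla in the same adult rats, all born to dams kept under intermittent hypoxia. The comparison covers 18 of the 40 libraries of the series: the C3 to C6 cord and the medulla of 5 male and 4 female sprague dawley offspring, 9 pairs in all. Libraries were paired by animal, through the shared sex, exposure and number in their labels. The pair of female hypoxia replicate 3 was left out because its medulla library was shallow. The dams of all 9 animals had breathed oxygen that alternated between 10.5% and 21%, with 15 cycles in each of 8 daily hours, from day 10 to day 21 of gestation. The offspring were born and housed without further exposure and were sampled at 8 weeks, so this exposure is common to both arms of the comparison. The arms differ in region and in anything that goes with it, such as the make-up of the isolated cell fraction. These cannot be told apart here. Normoxia offspring, 10 animals whose dams had cycles of room air at 21% oxygen, serve below as a separate set of animals.

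Microglia are the resident macrophages of the central nervous system. They survey the tissue, clear debris and respond to injury, and their transcript levels are known to vary between regions. The medulla holds the circuits that generate the breathing rhythm, and the midcervical cord holds the phrenic motor neurons that drive the diaphragm. Cells were taken with magnetic beads carrying an antibody against CD11b, an integrin chain found on microglia and on other myeloid cells, and all RNA of that fraction was sequenced together.

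Library totals ran from 8145033 to 19922079 reads. Medulla libraries held 10752151 to 13299310 reads in males and 11769521 to 18962716 in females. Cord libraries held 8145033 to 12016434 reads in males and 13570283 to 19922079 in females. Male cord libraries were thus mostly shallower than their medulla partners, at 0.619 to 1.04 times their total, and female cord libraries mostly deeper, at 0.952 to 1.42 times. The count table lists Ensembl rat gene IDs and does not pair them with gene names. In the gene table used for reference, 0 of 47357 rows carried an Ensembl ID, so 0 of the 32883 IDs received a symbol. The labelled cell type was therefore not checked against marker genes, the 31 prepared lists of pathways and cell types were not scored, and genes appear below as IDs and as groups by size of change. Here, as in any bulk fraction, more cells of a type and more RNA per cell cannot be told apart.

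Fewer genes were detected in the cord than in the medulla of every animal. Gene IDs with at least 1 read numbered 17133 to 18339 in medulla libraries, with a median of 17539, and 15306 to 17331 in cord libraries, with a median of 16682. The cord library had the lower number in 9 of 9 pairs, with a mean difference of cord minus medulla of -1007 IDs (SD 886, n = 9 pairs). The exact two-sided sign-flip permutation test gave p = 0.00391, the smallest that 9 pairs allow (adjusted p = 0.00977 over the 5 library measures compared). After every library was thinned at random to 8145033 reads, a step added after seeing the data, the medulla held 16527 to 17853 IDs and the cord 15163 to 16413, again with fewer in the cord in 9 of 9 pairs. The largest gap was that of male replicate 3, at -3033 IDs before and -2690 after thinning, whose medulla library had the most IDs of the 18 and whose cord library had the fewest.

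**Figure D1:**
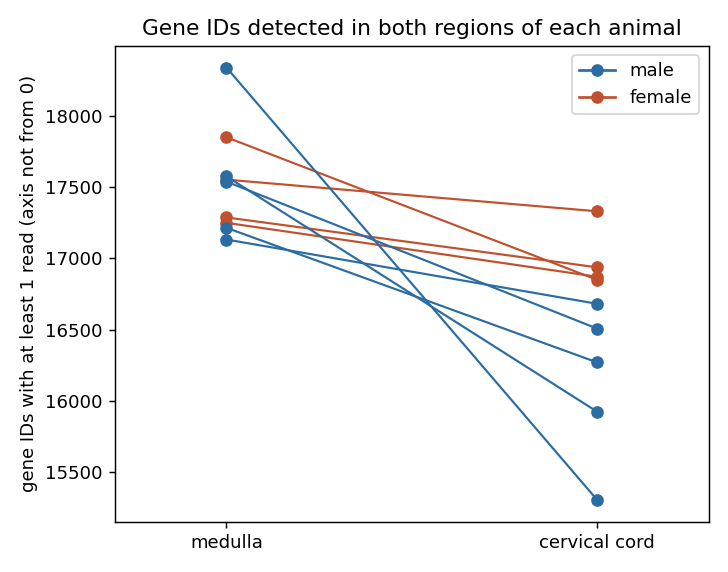
Number of gene IDs with at least 1 read (y axis, not starting at 0) in the medulla and cervical cord library of each animal, joined by a line, for 5 males (blue) and 4 females (red). All 9 lines fall from medulla to cord, from 17133 to 18339 IDs in the medulla down to 15306 to 17331 in the cord.

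The most abundant gene ID was the same in all 18 libraries. It took 1.96% to 5.93% of the reads in medulla libraries, with a median of 4.1%, and 3.28% to 11% in cord libraries, with a median of 4.56%. Its share was higher in the cord in 4 of 4 females and in 3 of 5 males, and over the 9 pairs the regions overlapped widely (exact two-sided sign-flip permutation test p = 0.277, adjusted p = 0.347). The 10 most abundant IDs of a library took 7.32% to 12.7% of the reads in the medulla and 9.28% to 18.2% in the cord (exact permutation p = 0.27, adjusted p = 0.347). Of the 10 IDs with the highest mean level, 1 was called between the regions in the fit described next, where 7.62% of all genes were called. Levels are given as CPM, read counts relative to the scaled total of each library, and are not per gene length.

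Over the 9 pairs, 991 of 12999 genes differed between cord and medulla, with 415 higher and 576 lower in the cord. The shares of all genes tested were 7.62% in both directions, 3.19% higher and 4.43% lower (edgeR quasi-likelihood test with the animal as block, adjusted p under 0.05). Genes lower in the cord reached much larger changes. The 415 higher genes had a median change of 1.72-fold and none of them changed more than 6.91-fold. The 576 lower genes had a median change of 2.08-fold, and among them 97 changed by 4-fold to 8-fold and 51 by over 8-fold. Changes under 1.5-fold made up 134 of the higher and 190 of the lower genes. The count depended on single animals: without male replicate 3 it was 658 and without female replicate 1 it was 637, and of these 650 and 619 belonged to the 991. With female replicate 3 put back it was 594 genes, with DESeq2 1745, and with limma voom and quality weights 1504. A fit that both added the normoxia libraries and gave each sex and exposure its own region effect called 2466.

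Direction of change went with the level of the gene. Among weakly expressed genes, those between 1 and 3 in average log2 CPM, 62 were higher and 186 lower in the cord of 2518 tested, and the median called gene changed 3.19-fold. Between 5 and 7 the directions were balanced, at 135 higher and 132 lower of 3950. Among the 231 genes above 9, the most abundant class, 25 were higher and 9 lower, so that 14.7% of this class was called, against 4.88% of the genes at or below 1.

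**Figure D2:**
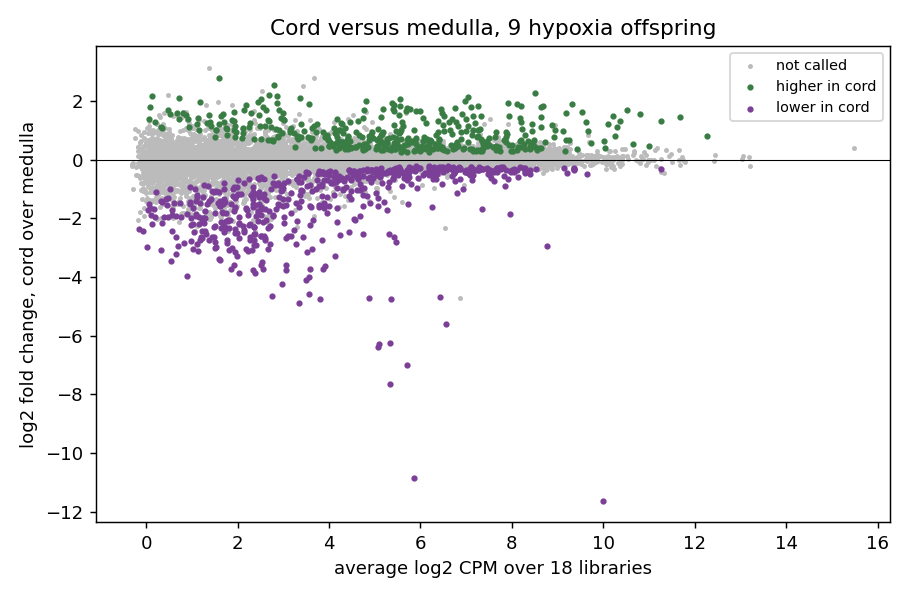
Log2 fold change of cord over medulla (y axis) against average log2 CPM over the 18 libraries (x axis) for 12999 genes, with 415 called higher in the cord in green, 576 called lower in purple and the rest in grey. Higher genes stay below 6.91-fold, while lower genes form a tail of 51 genes beyond 8-fold, mostly at low levels.

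Called genes moved the same way in nearly every animal. Of the 991, 652 had the same direction in 9 of 9 pairs and a further 316 in 8 of 9, which is a property the test itself selects for. Among all 12999 genes, 6.38% had the same direction in 9 of 9 pairs and 16.9% in at least 8. The 9 cord values and the 9 medulla values did not overlap for 142 genes, 1.09% of those tested, and 140 of these were among the 991, with 78 higher and 62 lower in the cord.

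Each animal was also set against calls made without it. Genes were called in the other 8 pairs, and their direction was read in the pair that had been left out, which shares no library with the call. The share with the same direction was 92.8% of 760 genes in male replicate 1, 74.3% of 962 in male replicate 2, 96.8% of 658 in male replicate 3, 93.2% of 688 in male replicate 4 and 89.2% of 886 in male replicate 5. In females it was 95.9% of 636 genes in replicate 1, 89.2% of 758 in replicate 2, 80.4% of 963 in replicate 4 and 95.3% of 682 in replicate 5. Over all genes tested, the share agreeing in sign with the fit of the other pairs was 54.4% to 69.7%. Every animal thus had a higher share among called genes than among all genes, and male replicate 2 and female replicate 4 had the lowest shares. Those animals also had the smallest shifts of the genes called lower, at a median log2 difference of -0.28 and -0.53, where the other 7 animals ran from -1.56 to -0.77. For genes called higher the medians ran from 0.57 to 1.18 over the 9 animals.

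**Figure D3:**
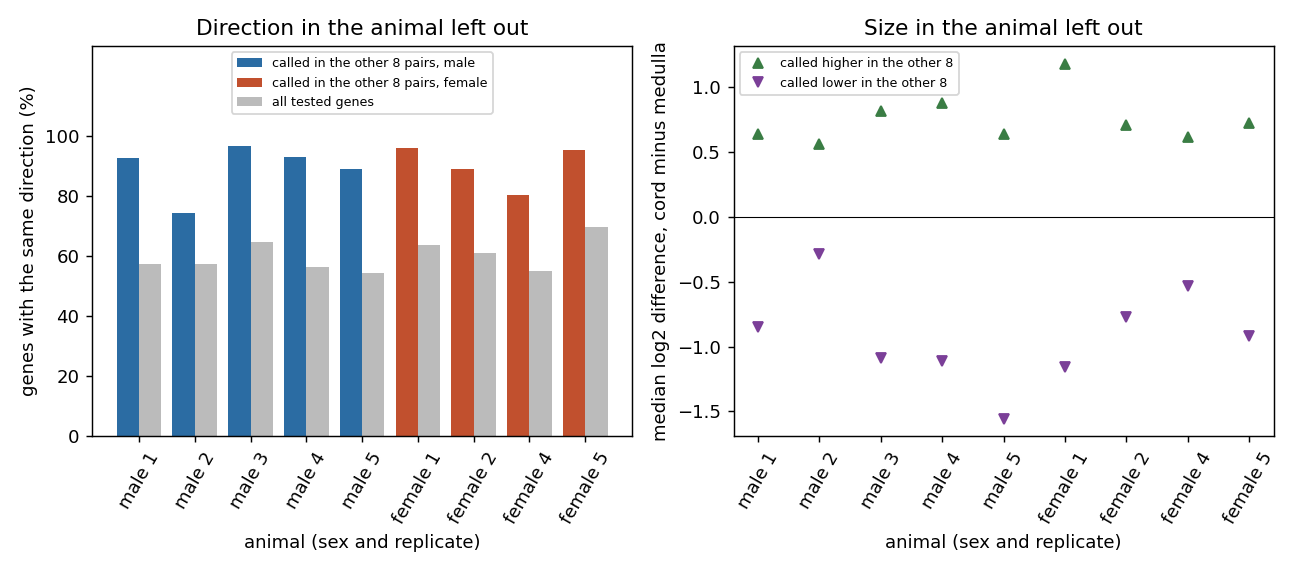
Left, percent of genes called in the other 8 pairs that had the same direction in the animal left out (blue, males; red, females), beside the same percent over all tested genes (grey). Right, median log2 difference of cord minus medulla in the animal left out, for genes called higher (green) and lower (purple) in the other 8; male replicate 2, at 74.3% and -0.28, shows the least shift of lower genes.

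The 51 genes lower in the cord by over 8-fold were described as a group because they set the tail of the distribution; they were chosen by these fold changes, so the hypoxia values are a description. Their average log2 CPM ran from 0.32 to 9.99 with a median of 2.75. In the medulla they summed to 1615, 92.6, 1754, 6032 and 11800 CPM in male replicates 1 to 5, and to 4503, 5057, 313 and 567 CPM in female replicates 1, 2, 4 and 5. The medulla libraries thus spanned from under 100 CPM in male replicate 2 to over 1% of all reads (1.18%) in male replicate 5. In the cord the same genes summed to 21.1 to 104 CPM, the highest being female replicate 2. The summed level was higher in the medulla in 9 of 9 animals, by 2.65 times in male replicate 2, by 6.54 and 14.1 times in female replicates 4 and 5, and by 48.5 to 395 times in the other 6.

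These genes varied together between medulla libraries. Male replicate 2 had the lowest medulla level of the 9 animals for 38 of the 51, and male replicate 5 the highest for 45 of the 51, against 1072 and 3411 of all 12999 genes. The median SD between animals was 2.02 on the log2 scale in the medulla and 1.09 in the cord for the 51, and 0.31 and 0.32 for all genes. The 97 genes lower by 4-fold to 8-fold had the same pattern, with a median SD of 1.29 in the medulla and male replicate 2 lowest for 74. The 152 genes lower by 2-fold to 4-fold had median SDs of 0.67 in the medulla and 0.66 in the cord. In the medulla, male replicate 2 was lowest for 74 of the 152 and male replicate 5 highest for 79. The 276 genes lower by under 2-fold had SDs of 0.24 and 0.26, with male replicate 2 lowest for 40 and male replicate 5 highest for 72. These classes were split by fold among called genes, and a small change passes the test only where the spread is small. Nothing is therefore read from the difference in spread between them. Cord levels of the 51 genes were low, where the prior count of 2 narrows the spread on the log2 scale. The gap between their medulla and cord SDs is therefore not read as a result either.

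**Figure D4:**
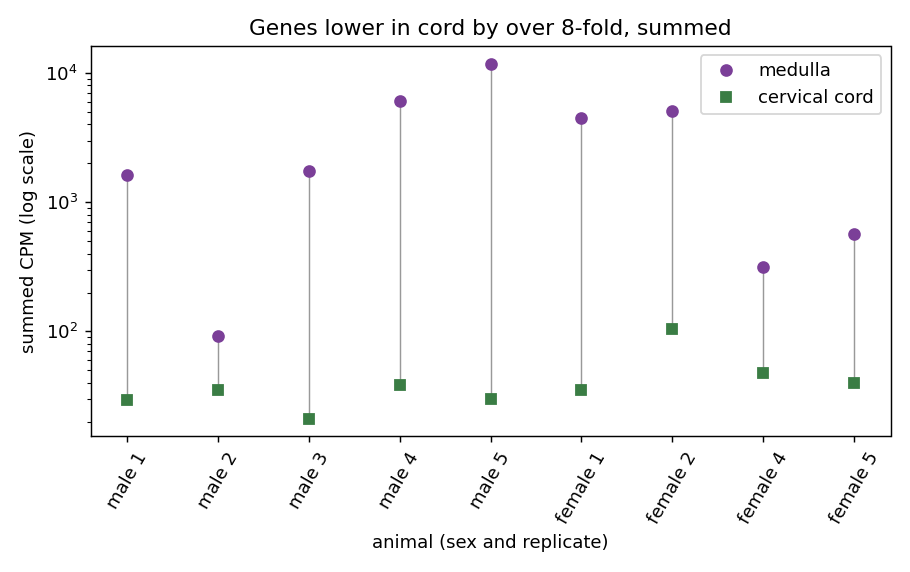
Summed CPM (log scale) of the 51 genes lower in the cord by over 8-fold, in the medulla (purple circles) and the cord (green squares) of each of the 9 animals. Medulla sums run from 92.6 to 11800 CPM and cord sums from 21.1 to 104 CPM, and in male replicate 2 the regions are closest.

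In normoxia offspring, whose libraries played no part in choosing these genes, 50 of the 51 could be tested, and 50 of 50 were lower in the cord. There, 49 were called lower (edgeR quasi-likelihood test with the animal as block over 10 pairs). Of all genes tested, 32.7% were called in normoxia offspring and 62.5% had the same direction under both exposures. The 153 genes higher by 2-fold or more in the cord of hypoxia offspring had a median SD of 0.55 in the medulla and 0.54 in the cord. Of the 150 tested, 148 were also higher in normoxia offspring, to be read against the same 62.5%.

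By the rule for IDs, 2 genes that rose and 2 that fell are given in full. They changed most among called genes with an average log2 CPM of at least 2 and the same direction in at least 8 pairs. ENSRNOG00000042078 ran from 3.84 to 30.2 CPM in cord libraries, with a median of 6.99, and from 0.941 to 3.51 CPM in medulla libraries, with a median of 1.57. It was higher in the cord in 9 of 9 pairs and the regions did not overlap (log2 fold change 2.53, SE 0.31, edgeR adjusted p = 0.000437). In males its cord level reached 30.2 CPM in replicate 2, 17.6 in replicate 4 and 10.6 in replicate 1, and stood at 4.71 and 6.99 in replicates 3 and 5. The female cord values were 25.1, 6.5, 3.84 and 4.55 CPM in replicates 1, 2, 4 and 5. The level in the cord therefore varied widely between animals of both sexes. Its log2 fold change was 3.02 (SE 0.37) in males and 1.99 (SE 0.4) in females, and the difference between the sexes did not pass the test (edgeR adjusted p = 0.204).

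ENSRNOG00000011406 was the more abundant of the rising IDs. Its cord levels were 394, 497, 416, 487 and 365 CPM in male replicates 1 to 5 and 1303, 788, 644 and 567 CPM in female replicates 1, 2, 4 and 5. In the medulla it stood at 114, 141, 111, 117 and 65.2 CPM in the males and at 110, 137, 146 and 134 CPM in the females. All 9 cord values lay above all 9 medulla values, and the 4 female cord values lay above the 5 male ones (log2 fold change 2.25, SE 0.17, edgeR adjusted p = 1.57e-05). By sex the log2 fold change was 2.01 (SE 0.2) in males and 2.57 (SE 0.22) in females, a difference that did not pass the test (edgeR adjusted p = 0.198). In normoxia offspring ENSRNOG00000011406 had a median of 463 CPM in the cord and 169 CPM in the medulla, with a log2 fold change of 1.4. The exposures were not called apart in that difference (0.88 on the log2 scale, edgeR adjusted p = 0.29).

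ENSRNOG00000016275 was close to absent from the cord and highly variable in the medulla. Cord libraries had no read for it in 6 of 9 animals and 4.61, 0.315 and 0.852 CPM in female replicates 2, 4 and 5. The medulla held 923, 13.1, 1003, 3585 and 7015 CPM in male replicates 1 to 5 and 2107, 3156, 116 and 390 CPM in female replicates 1, 2, 4 and 5. It was lower in the cord in 9 of 9 pairs (log2 fold change -11.62, SE 0.88, edgeR adjusted p = 1.57e-05). The 5 male cord libraries had 0 reads in all, so in males it was at least 42447-fold lower in the cord, against a floor of 3 counts over those libraries, which covers counting error only. That bound uses the mean of the male medulla libraries, and without male replicate 5 it was 18566-fold. It is not a bound for each male, as male replicate 2 held only 13.1 CPM in the medulla. Without this ID the rest of the 51 genes still summed to 79.5 to 4785 CPM in the medulla and to 21.1 to 99.7 CPM in the cord.

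ENSRNOG00000026870 had a similar pattern at a lower level, again lowest in male replicate 2 and highest in male replicate 5 in the medulla. Its medulla values were 43.8, 1.13, 50.2, 165 and 362 CPM in male replicates 1 to 5 and 225, 173, 12.4 and 4.88 CPM in female replicates 1, 2, 4 and 5. The cord libraries had 6 reads of it in all, in female replicate 2, at 0.354 CPM (log2 fold change -10.85, SE 0.38, edgeR adjusted p = 3.45e-08). By the mean of the males it was at least 2103-fold lower in the cord, against the same floor, and at least 873-fold without male replicate 5. In normoxia offspring this ID ran from 2.51 to 660 CPM in the medulla and from 0 to 0.7 CPM in the cord, so the spread between medulla libraries was wide there as well. For both falling IDs the fitted fold rests on cord levels at or near 0, so its exact size carries little weight. Their SEs are implied by the F test and do not give the spread between animals. The log2 difference of single pairs ran from -15.51 to -6.46 for ENSRNOG00000016275 and from -11.23 to -3.09 for ENSRNOG00000026870.

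The question of whether the sexes share the region difference was asked with a region effect for each sex. In males 1053 genes were called (8.1% of 12999), 464 higher (3.57%) and 589 lower (4.53%) in the cord. In females 2218 were called (17.1%), 1317 higher (10.1%) and 901 lower (6.93%). Both lists held 358 genes, which is 34% of the male list and 16.1% of the female list. Of these, 155 were higher in both sexes, 178 lower in both and 25 opposite. The 155 had a median log2 fold change of 1.04 in males and 1.19 in females, and the 178 had -1.72 and -1.61. All 333 were among the 991 genes of the pooled comparison. Male calls had the same sign in females for 78.8% of genes, while female calls had it in males for 47.3%, near the 46.9% of all tested genes. These lists also depended on single animals. The male count was 508, 346 and 444 without male replicates 3, 4 and 5, and 349 with female replicate 3 put back. The female count was 376, 734 and 530 without female replicates 1, 2 and 4.

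A direct test of the difference between the sexes called 1392 genes, 10.7% of those tested, with 814 (6.26%) more positive and 578 (4.45%) more negative in females (edgeR quasi-likelihood test of the interaction of sex and region). The 814 had a median log2 fold change of 0.78 in females and -0.33 in males, and the 578 had -0.45 and 0.3. The sexes had opposite signs in 1271 of the 1392, against 53.1% of all tested genes, which the choice of genes by this test favours. Of the 1392, 49 were among the 991 genes of the pooled comparison, where 7.62% of all genes were called. Opposite signs offset each other in the pooled effect, so the choice of genes favours a low overlap too. With DESeq2 the test called 2408 genes and with limma voom and quality weights 2169. The edgeR calls were not stable to the animals included. They fell to 0 without male replicate 1, female replicate 2 or female replicate 4, to 1 and 2 without male replicate 4 or female replicate 1, and to 657 and 392 without male replicates 3 and 5. Without female replicate 5 they rose to 2426. With female replicate 3 put back, 0 genes were called by edgeR. The lowest adjusted p among the 1392 genes in the edgeR test was 0.0285. At an unadjusted p under 0.05 the test had 4147 genes, 31.9% of those tested, and 2989 to 3897 in the 4 fits with 0 calls. Depth differed between the sexes in the same comparison, as given above. With all libraries thinned to equal totals the interaction called 1288 genes. Thinning evens out totals only, and the cause of the difference between the sexes was not tested.

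**Figure D5:**
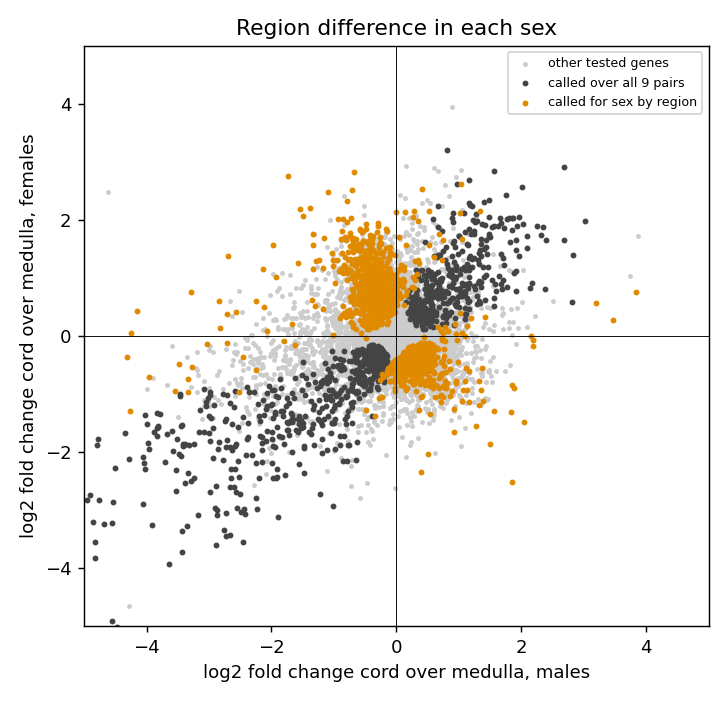
Log2 fold change of cord over medulla in females (y axis) against males (x axis) for the tested genes, with those called over all 9 pairs in dark grey and those called for the interaction of sex and region in orange; 21 genes lie outside the axis limits of 5. Genes called over all pairs lie where both sexes share a sign, and 1271 of the 1392 orange genes lie where the signs are opposite; the tests that chose both sets favour these places.

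The whole profile of differences showed the same split as a description. For each animal the log2 differences of cord minus medulla over 12999 genes were correlated with those of every other animal, across genes, which are not independent replicates. The 6 combinations of females gave 0.27 to 0.64 with a median of 0.54, and the 10 combinations of males gave 0.14 to 0.79 with a median of 0.52. The 20 combinations of a male and a female gave -0.18 to 0.51 with a median of 0.28. Male replicate 2 correlated least with the other males, at a median of 0.21, and female replicate 4 least with the males, at 0.07. Female replicate 5 was closer to the males, at 0.48, than to the other females, at 0.35.

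The last question was whether the region difference of hypoxia offspring departed from that of normoxia offspring. In normoxia offspring, fitted alone with the animal as block, 4306 of 13153 genes (32.7%) were called between cord and medulla, 2175 higher and 2131 lower. Nearly all of the 991 genes of hypoxia offspring had the same sign there. Of the 980 that could be tested, 954 (97.3%) had the same direction, against 62.5% of all genes, and 692 were called in that direction, with 1 called in the opposite one. The calls common to both lists made up 70.7% of those 980 genes and 16.1% of the normoxia list. Read the other way, of the normoxia calls also tested in hypoxia offspring, 3104 had the same sign there and 1106 the opposite sign. The median log2 fold change was 0.78 in hypoxia and 0.58 in normoxia offspring for the higher genes, and -1.04 and -0.63 for the lower ones; the genes had been chosen on the hypoxia values.

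A test of the exposure by region interaction over all 19 pairs called 0 genes with edgeR (0% of 14083), and 2172 genes, 15.4%, had an unadjusted p under 0.05. DESeq2 called 20 and limma voom with quality weights 0. The longer normoxia list is thus not shown to mean a larger region difference, gene by gene. The spread of the pair differences was wider in hypoxia offspring, with a median SD over genes of 0.46 on the log2 scale (n = 9 pairs) against 0.36 in normoxia offspring (n = 10 pairs). Within a sex these medians were 0.38 and 0.33 in males and 0.36 and 0.32 in females. When each sex and exposure had a region effect of its own, so that differences between the sexes no longer counted as spread, the same interaction called 601 genes, 394 more positive and 207 more negative in hypoxia offspring. The call of the interaction therefore depended on how the sexes entered the fit. All these fits counted each animal as a unit, although the exposure was given to dams and littermates share a dam.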

How the data were processed

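RNA of CD11b-selected cells was sequenced from 18 libraries, 2 from each of 9 hypoxia offspring. The deposited values are raw counts for each Ensembl gene ID in 40 columns, all matched to samples by label. TopHat2 2.1, HTSeq, edgeR and build rn6 are named, without roles, per the submitters' processing notes. The sources used here do not give the annotation release or the strand setting; overlapping, antisense or near-identical genes may share reads. No row lacked a gene ID, and no 2 libraries of a group agreed within sampling noise (chi-square per degree of freedom at least 10.9).

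R 4.3.3 and edgeR 4.0.16 (quasi-likelihood F test) were used on these counts, with TMM scaling, filterByExpr by region (minimum count 10) and Benjamini-Hochberg adjustment at 0.05. The designs were animal plus region, animal plus region by sex, and animal plus region by exposure over 38 libraries. Standard errors are those implied by F. Log2 CPM used a prior count of 2. The exact tests of library measures flip the signs of the 9 pair differences. Alternatives were RLE factors, no filter, DESeq2 1.42.0, limma 3.58.1 voom with quality weights, female pair 3 included and each pair left out. Others were no block and 38 libraries, both with a region effect for each sex and exposure. Thinning to equal totals and fold bounds without each male were added after seeing the data.

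Pairing comes from the series design and labels: both regions came from the same animal. Deviations from group means correlated positively in 9 of 9 pairs, at 0.07 to 0.55. In 6 of 9 the medulla library correlated most strongly with its partner, among only the 4 or 5 cord libraries of the same sex. The design also describes males and females from the same litters, which the labels do not identify. Litter therefore entered no fit. The comparison, lists and rules were chosen with earlier results of these data known. Printed IDs are the 2 that rose and the 2 that fell most among called genes whose average log2 CPM was at least 2 and whose direction held in at least 8 pairs; the symbols that the rule asked for could not be matched. On simulated counts for this paired comparison over 12765 genes, 72.4% of 98 genes changed 2-fold and 35.1% of 97 changed 1.5-fold were called, with 5 calls among 12570 unchanged genes. The simulation changed few genes, gave both sexes the same region effect and drew every gene and library independently. Its rates need not hold for the real data.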

Additional observations from a re-analysis of the deposited data

Results flagged for a closer look

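Among 33 groups of 4 to 9 values, 9 held a highest or lowest value far from its nearest neighbour. Chance gives about 1 in 20 for normally distributed values, and the groups share libraries. That rate need not hold for CPM or percents of reads, least of all where 8 of 9 values are 0. Cord replicate 2 stood out in both sexes by its most abundant gene ID, which took 11% of the reads in the female (next highest 5.33%) and 5.25% in the male (next 3.76%). In that male library the 10 most abundant IDs took 11% (next 9.74%).

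Female replicate 1 was highest for ENSRNOG00000042078 in the medulla, at 3.51 CPM (next 1.82), and for ENSRNOG00000011406 in the cord, at 1303 CPM (next 788). The latter gave a log2 difference between the regions of 3.56 (next 2.52). Male replicate 5 was lowest for ENSRNOG00000011406 in the medulla, at 65.2 CPM (next 110). Female replicate 2 was highest in the cord for both falling IDs, at 4.61 CPM (next 0.852) for ENSRNOG00000016275 and 0.354 CPM (the other 8 at 0) for ENSRNOG00000026870.

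The region difference differed between the sexes in 1392 genes by the interaction test, a count that fell to 0 when any of 3 single animals was left out.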

How the results depend on the processing

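The 4 printed IDs kept their direction and their call under all 17 alternatives. With no replicate block the pooled comparison called 1278 genes, males 934, females 983, the sex interaction 375 and the exposure interaction 15 (991, 1053, 2218, 1392 and 0 in the paired fits). That fit also had a region effect for each sex and exposure. For the pooled comparison and the exposure interaction it therefore changed both the block and the region effects. DESeq2 called 1745 genes in the pooled comparison, 1820 in males, 2408 for the sex interaction and 20 for the exposure interaction, and limma voom 1504 in the pooled comparison and 2169 for the sex interaction. With female pair 3 included the counts were 594 pooled, 349 in males and 0 for the sex interaction (3430 at an unadjusted p under 0.05). With 38 libraries and a region effect for each sex and exposure, which changes libraries and design for the pooled comparison, the libraries alone for those by sex and the design alone for the exposure interaction, they were 2466 pooled, 2113 in males, 2566 for the sex interaction and 601 for the exposure interaction. Leaving out 1 animal gave 637 to 1002 genes pooled, 346 to 1323 in males, 376 to 2797 in females, 0 to 2426 for the sex interaction and 0 to 1 for the exposure interaction (1 without male replicate 2). Without the filter the pooled calls were 368 higher and 941 lower of 22193. RLE factors and thinning moved no count by over 1.5 times. The bounds for the 2 falling IDs in males ran from 18566-fold to 44597-fold and from 873-fold to 2208-fold when 1 male was left out, lowest without male replicate 5. The causes were not tested.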
